A study of Mus musculus with 6 samples.

Results

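A set of 8 genes of the macrophage lineage were followed in bulk RNA from MCA205 tumors, a transplantable mouse fibrosarcoma line, of mice given FF-10101 or water. The genes were taken by name from the table of gene values: *Adgre1*, *Itgam* and *Mertk* at the cell surface, *Lyz2* and *Aif1* in lysosomes and cytoplasm, and the transcription factors *Spi1*, *Cebpb* and *Maf*. All 8 of 8 were found among the 54309 gene identifiers, and all 8 were among the 13963 genes whose mean normalized count reached 10 and that were tested. Female C57BL/6J mice aged 7 weeks received 1000000 MCA205 cells subcutaneously on day 0. The 3 control tumors were from mice that drank MilliQ water from day 1, and the 3 treated tumors from mice whose water held 0.1 mg/mL FF-10101, a covalent inhibitor of the receptor tyrosine kinases FLT3 and CSF1R. Tumors were collected on day 8. The labels number the tumors as replicates and do not say whether each came from a mouse of its own, so p-values cover the spread between these samples. The RNA came from whole tissue, MCA205 cells and host cells together, so fewer cells of a type and less RNA per cell cannot be told apart. Controls and treated mice carried the same tumor line and no engineered allele is given for either group.

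Macrophages and their monocyte precursors depend on CSF1R signaling for survival and differentiation. Their identity is set by a small group of transcription factors: PU.1, the product of *Spi1*, binds myeloid promoters and enhancers early in the lineage, C/EBPβ acts with it in monocytes and in inflammatory responses, and c-Maf is found in mature tissue macrophages. The surface proteins F4/80 (*Adgre1*), CD11b (*Itgam*) and the receptor tyrosine kinase MerTK are used to gate macrophages, although CD11b is also carried by neutrophils, monocytes and some NK cells. Lysozyme M (*Lyz2*) and IBA1 (*Aif1*) are classical stains and reporters of myeloid cells.

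Total reads ranged from 9143806 to 9643535 in the control tumors and from 9277019 to 13258258 in the FF-10101–treated tumors. Control tumor 1 stood apart from the other control tumors: across the 13963 genes, which are not independent replicates, its log2 values had a Pearson correlation of 0.928 and 0.916 with control tumors 2 and 3 and of 0.952, 0.961 and 0.957 with FF-10101 tumors 1, 2 and 3. The fibroblast and fibrosarcoma markers, *Col1a1* and *Pdgfrb* among them, passed the minimum count in 10 of 10 cases, with sums of 70518 to 213953 normalized counts in the control tumors and 160136 to 257373 in the treated tumors. Of 13 marker lists, 2 had sums that did not overlap between groups, those of neutrophils and mast cells, both higher after FF-10101. Without control tumor 1, a setting added for these sums after the data were seen, 6 sums were higher without overlap, those of endothelial cells, fibroblasts, T cells and leukocytes in addition. Leaving out a tumor can only add such sums. Of single genes tested, 10.9% were higher without overlap in all tumors and 28.4% without control tumor 1. The endothelial sum was 5008 in control tumor 1, 1922 and 1334 in control tumors 2 and 3 and 4808 to 5477 in the treated tumors, and 6 of 6 endothelial markers passed higher without control tumor 1, as did 12.0% of all genes tested. Keratinocyte markers summed to 937 normalized counts in FF-10101 tumor 1 and to 19.6 to 173 in the other 5 tumors.

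Promoter sequences are shown for *Itgam* and *Lyz2*, whose levels separated the groups, for *Aif1*, whose levels did not, and for *Lyz1*, the near-identical neighbor of *Lyz2*. They are the 250 bases before the annotated start in RefSeq on GRCm38.p6, written 5′ to 3′ on the strand of the gene, at chr7:128062390-128062639 (+), chr10:117282273-117282522 (−), chr17:35176053-35176302 (−) and chr10:117292869-117293118 (−) in the order *Itgam*, *Lyz2*, *Aif1*, *Lyz1*. Of the 8 genes, 5 had an entry. Capitals mark the PU.1 core GAGGAA on either strand.
Itgam: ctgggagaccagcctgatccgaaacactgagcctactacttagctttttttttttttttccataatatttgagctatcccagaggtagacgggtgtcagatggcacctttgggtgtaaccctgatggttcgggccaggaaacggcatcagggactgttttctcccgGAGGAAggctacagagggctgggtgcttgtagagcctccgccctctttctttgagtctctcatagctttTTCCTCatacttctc
Lyz2: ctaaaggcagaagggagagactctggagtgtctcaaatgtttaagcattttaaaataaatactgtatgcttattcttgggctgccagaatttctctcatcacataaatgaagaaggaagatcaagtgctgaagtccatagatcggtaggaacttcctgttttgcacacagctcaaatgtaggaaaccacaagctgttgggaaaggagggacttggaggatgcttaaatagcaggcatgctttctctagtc
Aif1: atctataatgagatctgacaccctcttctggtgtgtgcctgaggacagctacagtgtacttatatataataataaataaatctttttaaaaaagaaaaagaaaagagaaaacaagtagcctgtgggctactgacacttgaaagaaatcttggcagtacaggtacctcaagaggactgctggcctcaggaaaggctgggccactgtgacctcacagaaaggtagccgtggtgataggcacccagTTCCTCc
Lyz1: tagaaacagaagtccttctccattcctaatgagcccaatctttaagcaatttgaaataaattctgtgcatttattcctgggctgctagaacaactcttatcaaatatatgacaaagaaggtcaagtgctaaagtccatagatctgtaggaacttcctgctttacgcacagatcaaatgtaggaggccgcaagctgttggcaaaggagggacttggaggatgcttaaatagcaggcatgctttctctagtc
The PU.1 core was present in the windows of *Itgam*, at bases 84 to 79 on the gene's strand and 15 to 10 on the opposite strand before the start, and of *Aif1*, at bases 7 to 2 on the opposite strand. These letters were not in the windows of *Lyz2*, *Mertk*, *Cebpb* or *Lyz1*, and 23.1% of all 27025 promoter windows hold them. In the last 100 bases before the start, *Lyz2* and *Lyz1* had the same base at 92 positions.

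The main comparison asked whether the treated tumors held less or more RNA of the macrophage lineage genes than the control tumors. *Adgre1*, *Itgam*, *Lyz2* and *Maf* were lower in each FF-10101–treated tumor than in each control tumor, at 49.6% to 66.4% of the control mean. *Mertk*, *Aif1*, *Spi1* and *Cebpb* had overlapping groups. Among all genes tested, 9.37% were lower without overlap and 10.9% were higher without overlap, 20.2% in either direction together, and of the 8 genes 4 and 0 were. No gene of the 8 passed an adjusted p of 0.05, and 4 had an unadjusted p under 0.05 (limma with Benjamini-Hochberg adjustment); limma-voom on the recovered reads passed 0 as well. Of the 13963 genes, 0.0430% passed the adjusted and 16.3% the unadjusted threshold. The median log2 fold change was −0.48 over the 8 genes and 0.0202 over all genes tested, and −0.27 and 0.0360 without control tumor 1. Leaving out a tumor cannot undo a separation, so without control tumor 1 the same 4 genes were necessarily lower without overlap. *Cebpb* was then higher without overlap. Of all genes tested, 25.7% were lower and 28.4% higher without overlap in that setting. In that fit 2 of the 8 genes passed the adjusted threshold, *Adgre1* lower and *Cebpb* higher, as did 21.9% of all genes. Array weights gave control tumor 2 89.8% and FF-10101 tumor 2 86.5% of the weight of their groups, so that fit is close to a comparison of these 2 tumors. In it 7 of 8 passed (all but *Spi1*), with *Aif1* then higher (0.41), *Lyz2* at −0.47, *Mertk* at 0.47 and *Cebpb* at 0.44, and 59.9% of all genes did.

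**Figure D1:**
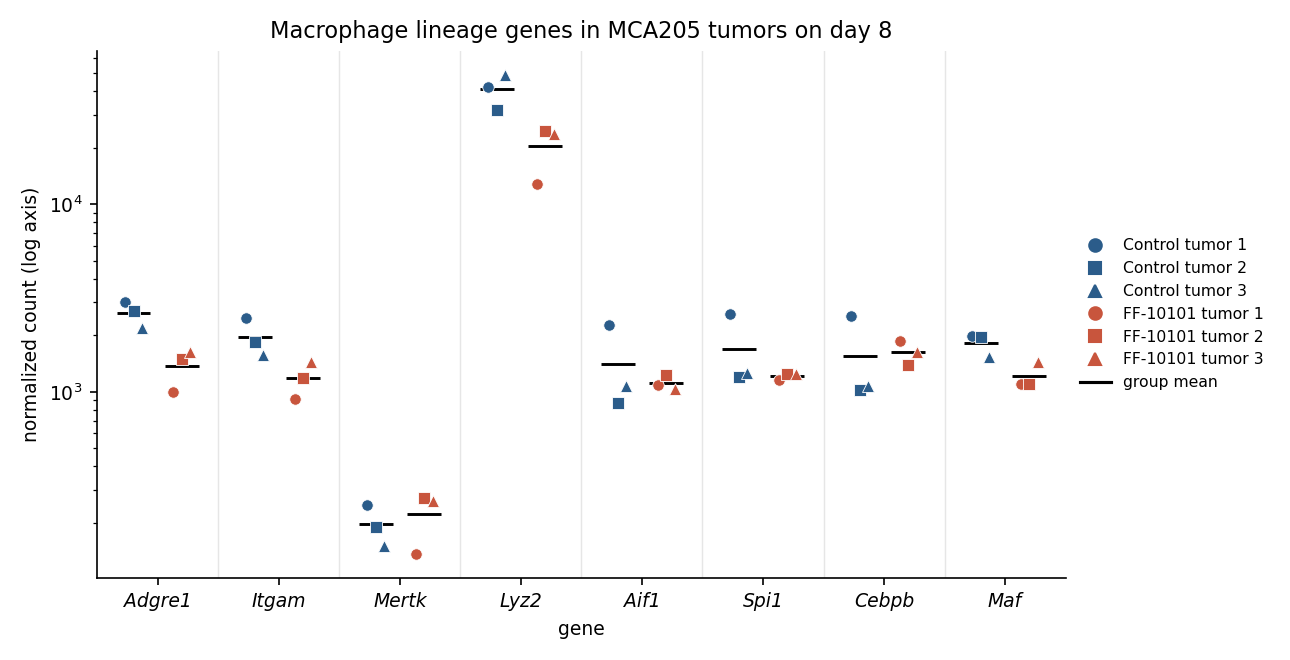
Normalized count of each gene (log axis) in each tumor, with symbols for the tumor number, blue for control, red for FF-10101 and a line at the group mean. The red points of *Adgre1*, *Itgam*, *Lyz2* and *Maf* lie below all blue points, and control tumor 1 lies well above the other control tumors for *Aif1*, *Spi1* and *Cebpb*.

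Of the surface receptors, *Adgre1* (ENSMUSG00000004730), an adhesion G protein-coupled receptor that serves as the F4/80 antigen, had 2995, 2708 and 2179 normalized counts in control tumors 1, 2 and 3 and 997, 1501 and 1634 in FF-10101 tumors 1, 2 and 3. The highest treated tumor was below the lowest control tumor, and control tumor 1 was close to the other control tumors. The means were 2627 ± 414 and 1378 ± 336 (SD, n = 3 each), which gave a fitted log2 difference of −0.95 (standard error 0.22, 95% interval −1.46 to −0.44, adjusted p = 0.229 from limma). It passed the threshold without control tumor 1 (log2 fold change −0.85, adjusted p = 0.0309 from limma), where 9.88% of all genes tested were called lower. The log2 fold change was −0.73 without FF-10101 tumor 1, which had the lowest level.

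*Itgam* (ENSMUSG00000030786), the integrin αM chain of complement receptor 3, had 2488, 1846 and 1566 normalized counts in the control tumors and 915, 1181 and 1449.7 in the treated tumors, in the order of their numbers. The groups did not overlap, but control tumor 3 and FF-10101 tumor 3 were close. The log2 fold change was −0.73 (standard error 0.23, 95% interval −1.27 to −0.20, adjusted p = 0.235 from limma), and it was −0.55 without control tumor 1 (adjusted p = 0.0853 from limma). Transcripts of *Gm49368* match *Itgam* over 3453 bases at 99.9% identity, but were counted at no more than 1.84% of the *Itgam* level in a tumor, and the sum of both genes was also lower in each treated tumor.

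*Mertk* (ENSMUSG00000014361), a receptor with which macrophages engulf apoptotic cells, had the fewest reads of the 8 genes, between 136 and 294 per tumor. It had 249.9, 191 and 151 normalized counts in the control tumors and 137, 271 and 261 in the treated tumors. FF-10101 tumor 1 had the lowest value of the 6 tumors and FF-10101 tumors 2 and 3 the highest. The log2 fold change was 0.14 (standard error 0.32, 95% interval −0.59 to 0.87, adjusted p = 0.842 from limma), and it was 0.46 without FF-10101 tumor 1 and −0.0355 without control tumor 3.

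*Lyz2* (ENSMUSG00000069516), which encodes the lysozyme that digests bacterial cell walls, had 42373, 31642 and 48996 normalized counts in the control tumors and 12842, 24525 and 23652 in the treated tumors. Every treated tumor was below every control tumor, with FF-10101 tumor 1 the lowest. The means were 41003 ± 8758 and 20339.7 ± 6508 (SD, n = 3 each), which gave a fitted log2 difference of −1.05 (standard error 0.31, 95% interval −1.76 to −0.33, adjusted p = 0.229 from limma). It was −0.74 without FF-10101 tumor 1 and −1.01 without control tumor 1 (adjusted p = 0.0523 from limma). *Lyz1* transcripts match *Lyz2* over 1264 bases at 95.8% identity, so reads may be split between both genes. *Lyz1* had 171, 63.0 and 169 normalized counts in the control tumors and 11.5, 91.2 and 228 in the treated tumors, at most 0.966% of *Lyz2*, and the sum of both genes had a log2 difference of −1.04.

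*Aif1* (ENSMUSG00000024397), an actin-bundling calcium-binding protein of macrophages, had 2258, 874 and 1068 normalized counts in the control tumors and 1088, 1235 and 1035 in the treated tumors. Control tumor 1 had the highest value, and the other 5 tumors lay close together. The log2 fold change was −0.20 (standard error 0.33, 95% interval −0.95 to 0.55, adjusted p = 0.781 from limma), and it was 0.21 without control tumor 1.

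Among the transcription factors, *Maf* (ENSMUSG00000055435) had 1994, 1966 and 1529.7 normalized counts in the control tumors and 1101, 1095 and 1448 in the treated tumors. The groups did not overlap, with control tumor 3 and FF-10101 tumor 3 the closest pair. The means were 1829.7 ± 260.2 and 1215 ± 202 (SD, n = 3 each), which gave a fitted log2 difference of −0.59 (standard error 0.18, 95% interval −1.01 to −0.18, adjusted p = 0.229 from limma). It was −0.53 without control tumor 1 (adjusted p = 0.0699 from limma). The antisense gene *Gm15655* shares 402 bases with *Maf* and was read 24 times in control tumor 2, 18 times in FF-10101 tumor 2 and 0 times in the other tumors.

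*Spi1* (ENSMUSG00000002111), the gene of PU.1, had 2589, 1199.7 and 1261 normalized counts in the control tumors and 1154, 1244 and 1251 in the treated tumors. Apart from control tumor 1, all tumors lay between 1154 and 1261. The coefficient of variation was 46.6% in the control and 4.44% in the treated tumors. The log2 fold change was −0.37 (standard error 0.28, 95% interval −1.03 to 0.28, adjusted p = 0.536 from limma), and −0.0173 without control tumor 1, with an interval of −0.30 to 0.27.

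*Cebpb* (ENSMUSG00000056501) had 2537, 1023 and 1075 normalized counts in the control tumors and 1876, 1387 and 1623 in the treated tumors. Control tumor 1 was the highest of the 6 tumors and control tumors 2 and 3 the lowest. The log2 fold change was 0.20 (standard error 0.34, 95% interval −0.58 to 0.98, adjusted p = 0.790 from limma). Without control tumor 1 it was 0.62 and passed the threshold (adjusted p = 0.0268 from limma), where 12.0% of all genes tested were called higher, and without control tumor 2 it was −0.0309. A transcript of *Tmem189* matches *Cebpb* over 320 bases at 99.4% identity, and *Tmem189* had up to 74.4% of the *Cebpb* level in a tumor. For the sum of both genes the log2 difference was 0.098, with overlapping groups.

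**Figure D2:**
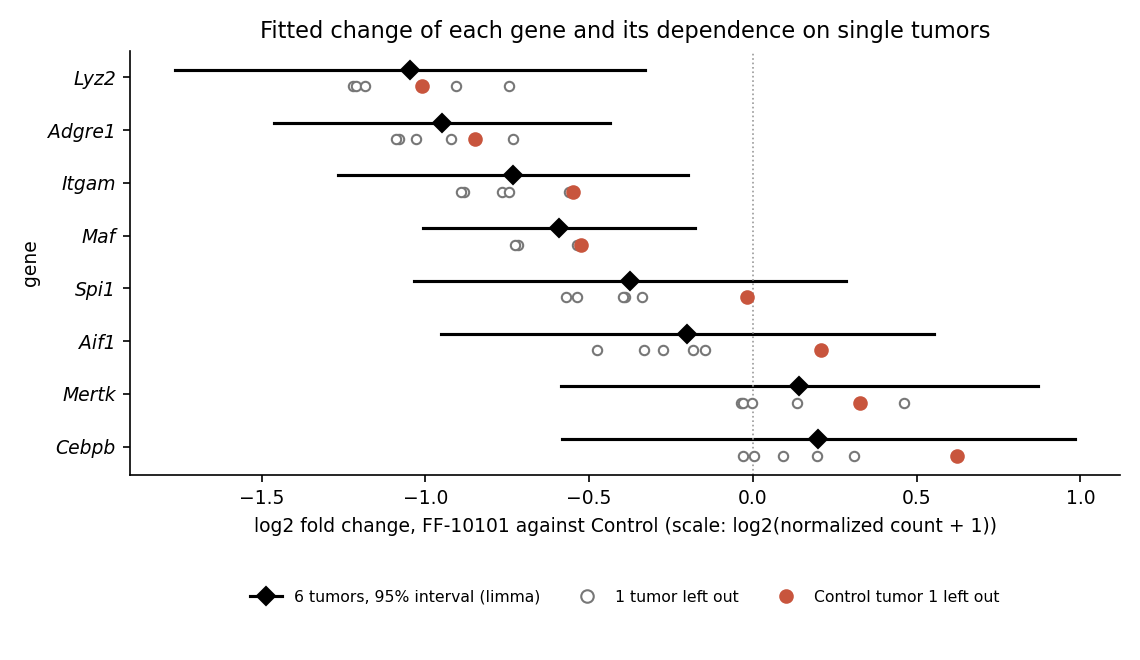
Log2 fold change of FF-10101 against control for each gene. Black diamonds and lines give limma's estimate and 95% interval from 6 tumors, open circles the estimates with 1 tumor left out and red circles those without control tumor 1. The intervals of *Lyz2*, *Adgre1*, *Itgam* and *Maf* lie below 0, and the red circle of *Cebpb* is at 0.62 while that of *Spi1* is at −0.0173.

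Levels were then compared between the 8 genes per kilobase of the longest coding transcript in GENCODE vM21. In the control tumors *Lyz2* was the highest with 31158 ± 6655 normalized counts per kilobase (SD, n = 3), followed by *Aif1* with 1600.0 ± 857, *Cebpb* with 1027 ± 572, *Spi1* with 828 ± 386 and *Adgre1* with 811 ± 128. *Itgam* had 420.1 ± 101, *Maf* 288 ± 40.9 and *Mertk* 45.9 ± 11.6 normalized counts per kilobase. The order of the means was the same in the treated tumors. In the control tumors it rested on control tumor 1, with 1273 for *Spi1* and 925 for *Adgre1*. In control tumors 2 and 3 *Adgre1* (836 and 673) was above *Spi1* (590 and 620). The ranges of *Aif1*, *Cebpb*, *Spi1* and *Adgre1* overlapped between neighbors in the control tumors. In the treated tumors *Adgre1* had 425 ± 104 and *Spi1* 598 ± 26.6 normalized counts per kilobase, and their ranges no longer overlapped, nor did those of *Cebpb* and *Spi1*. The ranges of *Adgre1* and *Itgam*, at 308 to 505 and 195 to 309.6, and of *Itgam* and *Maf* overlapped in the treated but not in the control tumors.

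To follow the genes relative to the leukocytes of the same tumor, each was divided by *Ptprc*, the gene of the pan-leukocyte protein CD45. *Ptprc* itself had 3237, 1443 and 1175 normalized counts in the control tumors and 1741, 2329.7 and 2844 in the treated tumors, and its groups overlapped through control tumor 1 (log2 fold change 0.36, adjusted p = 0.650 from limma). Without that tumor *Ptprc* itself was higher in each treated tumor and passed the threshold (0.79, adjusted p = 0.0327 from limma), as 12.0% of all genes tested passed higher. Of the 8 leukocyte genes listed, *Ptprc* had the largest fitted rise, and the median log2 fold change of the 8 was 0.083. Differences of ratios to *Ptprc* are thus lower than those to any other gene of that list would be. Relative to *Ptprc*, *Adgre1*, *Itgam*, *Lyz2* and *Spi1* were lower in each treated tumor than in each control tumor, and the other 4 genes overlapped. Of these, *Maf* and *Mertk* overlapped only through control tumor 1, with log2 ratios of −0.70 and −3.69 there. Of all genes tested, 2.69% had a ratio to *Ptprc* that was lower without overlap and 5.27% one that was higher. The log2 ratio of *Adgre1* to *Ptprc* was −0.11, 0.91 and 0.89 in control tumors 1, 2 and 3 and −0.80, −0.63 and −0.80 in FF-10101 tumors 1, 2 and 3, a difference of −1.31 between the means (exact two-sided permutation test, p = 0.1, the smallest possible for 3 against 3). Control tumor 1 lay between the other control tumors and the treated tumors. That of *Itgam* was −0.38, 0.35 and 0.41 in the control tumors and −0.93, −0.98 and −0.97 in the treated tumors, where it varied least, with an SD of 0.0279. That of *Lyz2* was 3.71, 4.45 and 5.38 against 2.88, 3.40 and 3.05. *Spi1* was not separated by its own level, at a log2 fold change of −0.0173 without control tumor 1 where *Ptprc* had 0.79, but its log2 ratio to *Ptprc* was −0.32, −0.27 and 0.10 in the control tumors and −0.59, −0.90 and −1.18 in the treated tumors. The differences were −1.09 for *Itgam*, −1.40 for *Lyz2* and −0.73 for *Spi1* (exact two-sided permutation test, p = 0.1 each). Those of *Maf*, *Aif1*, *Mertk* and *Cebpb* were −0.95, −0.56, −0.22 and −0.16 (exact p = 0.2, 0.2, 0.6 and 0.6).

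Relative to *Adgre1*, the genes did not keep 1 ratio. *Mertk* had a log2 ratio to *Adgre1* of −3.58, −3.82 and −3.84 in the control tumors and −2.86, −2.46 and −2.64 in the treated tumors, a difference of 1.09. *Cebpb* had −0.24, −1.40 and −1.02 against 0.91, −0.11 and −0.0094, a difference of 1.15. *Maf* had −0.59, −0.46 and −0.51 against 0.14, −0.45 and −0.17, a difference of 0.36 with FF-10101 tumor 2 close to the control tumors. These 3 ratios were higher in each treated tumor (exact two-sided permutation test, p = 0.1 each), as were the ratios of 66.3% of all genes tested, since *Adgre1* itself was lower. The ratios of *Itgam*, *Aif1*, *Spi1* and *Lyz2* to *Adgre1* overlapped, with differences of 0.22, 0.75, 0.58 and −0.0965 (exact p = 0.2, 0.2, 0.3 and 0.9). Those of *Itgam*, *Aif1* and *Spi1* overlapped only through control tumor 1, at −0.27, −0.41 and −0.21. In control tumors 2 and 3 these ratios were below every treated tumor.

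**Figure D3:**
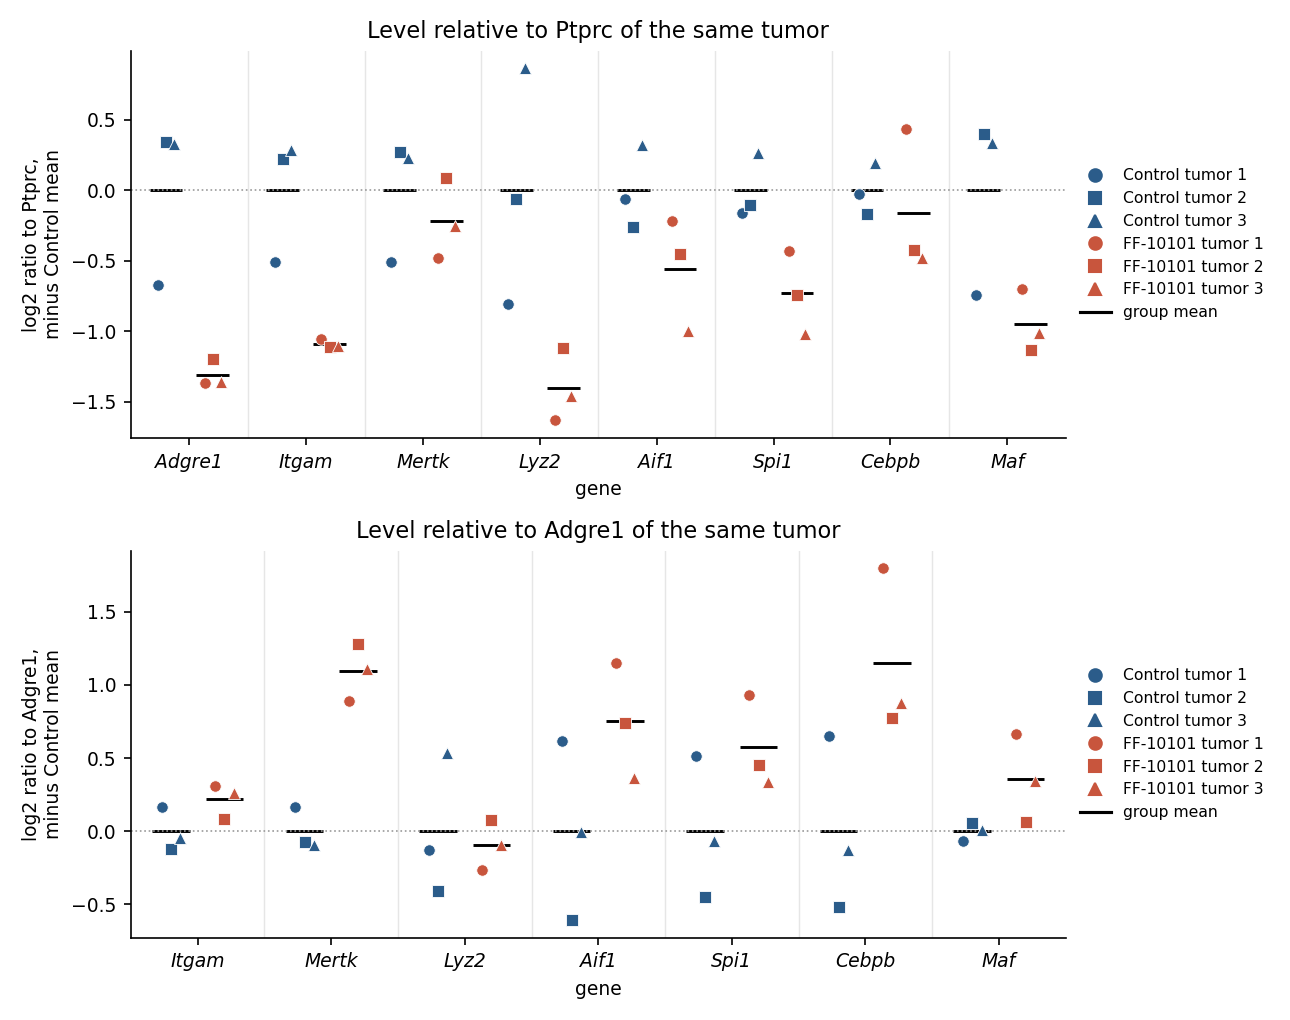
Log2 ratio of each gene to *Ptprc* (top) and to *Adgre1* (bottom) in the same tumor, minus the control mean, with symbols for the tumor number and lines at the group means. In the top panel the treated tumors lie below every control tumor for *Adgre1*, *Itgam*, *Lyz2* and *Spi1*; in the bottom panel they lie above for *Mertk*, *Cebpb* and *Maf*.

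Close relatives and partners of the 8 genes were read from the same fit. Of 17 genes 16 were tested, 0 passed an adjusted p of 0.05 and 2 had an unadjusted p under 0.05, both higher; 2 were higher without overlap and 0 were lower, shares near the 16.3% and 10.9% of all genes tested, and the median log2 fold change was 0.31. The 2 genes were *Pros1*, protein S, a ligand of MerTK, and *Spic*, an ETS factor related to PU.1. *Pros1* had 951, 613 and 461 normalized counts in the control tumors and 1243, 1032 and 1189 in the treated tumors, a fitted log2 difference of 0.83 with an adjusted p of 0.233 in limma. It passed without control tumor 1 (log2 fold change 1.11, adjusted p = 0.00476 from limma), where 12.0% of all genes tested passed higher and 9.88% lower. *Spic* had at most 11.1 normalized counts in a control tumor and 14.5 to 24.9 in the treated tumors. *Gas6*, the other ligand of MerTK, had 880.3, 845 and 816 normalized counts in the control tumors and 164, 655 and 910.2 in the treated tumors, with FF-10101 tumor 1 far below the others. Of the sister receptors of MerTK, *Axl* had a log2 fold change of −0.10 and *Tyro3* of −0.12, and *Tyro3* passed lower without control tumor 1 (−0.68, adjusted p = 0.0403 from limma). *Mfge8*, a bridging protein for apoptotic cells, had 0.28.

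The integrin chains around *Itgam* had fitted values of the opposite sign, which turned for *Itgb2* and *Itgal* without control tumor 3 (−0.12 and −0.11). *Itgb2*, the β2 chain with which CD11b pairs, had 4373, 1422 and 1160.3 normalized counts in the control tumors and 1728, 2527 and 2787 in the treated tumors. *Itgal* and *Itgax*, which encode the other α chains CD11a and CD11c, had 364 to 1682 and 192 to 980.4 in the control tumors and 748 to 1059 and 529.8 to 588 in the treated tumors. The groups of all 3 genes overlapped, with log2 fold changes of 0.25 for *Itgb2*, 0.36 for *Itgal* and 0.53 for *Itgax*. All 3 passed higher without control tumor 1 (0.84, 0.99 and 1.19, adjusted p = 0.0289, 0.0176 and 0.00973 from limma), where 12.0% of all genes tested passed higher. *Itgad* had at most 6.51 normalized counts and was not tested. Ratios within such pairs were computed after these values were seen. The ratio of *Itgam* to *Itgb2* was 0.569, 1.298 and 1.35 in the control tumors and 0.5299, 0.468 and 0.520 in the treated tumors, so that the groups were separate but control tumor 1 lay next to the treated tumors. The ratio of *Itgam* to *Itgal* was 1.48, 3.33 and 4.296 against 1.222, 1.31 and 1.37.

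*Adgre5*, the CD97 relative of F4/80, had 635, 348 and 279.5 against 380.3, 627 and 647, and the ratio of *Adgre1* to *Adgre5* was 4.71, 7.77 and 7.77 against 2.62, 2.39 and 2.52. The mean log2 ratios of that pair differed by −1.39, and control tumor 1 lay between the other control tumors and the treated tumors. Of the 8 pairs formed, 3 had separate groups, *Itgam* with *Itgb2* and *Itgal* and *Adgre1* with *Adgre5*, and since they were formed with these values in view no test is given. The C/EBP genes *Cebpa*, *Cebpd* and *Cebpe* had log2 fold changes of −0.0853, 0.35 and 0.68, and *Spib* and *Adgre4* of −0.15 and 0.34, with overlapping groups.

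**Figure D4:**
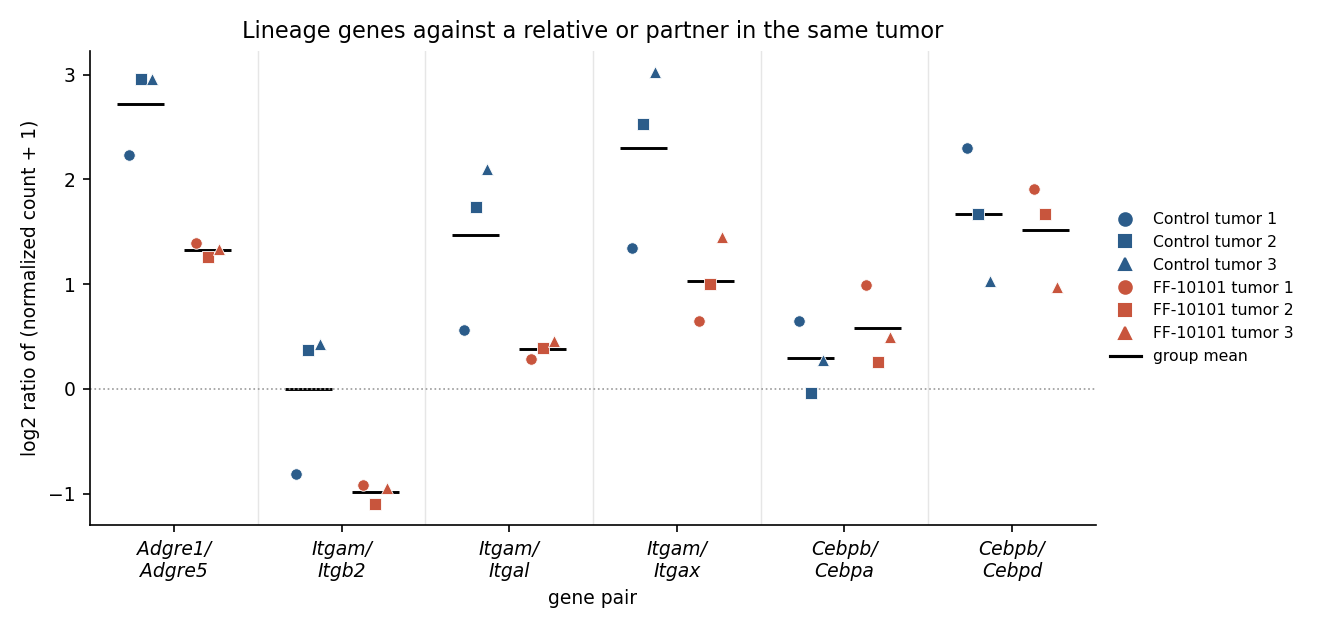
Log2 ratio of a lineage gene to a relative or partner in the same tumor, with symbols for the tumor number and lines at the group means. Ratios of *Adgre1* to *Adgre5* and of *Itgam* to *Itgb2* and *Itgal* are lower in each treated tumor, and those of *Cebpb* overlap between groups.

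Wider lists of the lineage were read next. Of 25 transcription factors of macrophages and monocytes 0 passed an adjusted p of 0.05; *Spic* was the 1 higher without overlap, 0 were lower without overlap, below the 10.9% and 9.37% of all genes tested, and the median log2 fold change was 0.19. Without control tumor 1, 8 of the 25 passed higher and 0 lower, beside 12.0% and 9.88% of all genes tested, among them *Pparg* (1.86) and *Id2* (1.06), and the median was 0.44. The largest fitted values were 1.26 for *Pparg*, a lipid-sensing nuclear receptor with 8 to 80 reads per tumor, 1.20 for *Spic* and 0.63 for *Id2*. The lowest were −0.72 for *Bhlhe41*, −0.68 for *Batf3*, a factor of dendritic cells, and −0.24 for *Tfec*. Of 31 pan-macrophage surface and cytoplasmic genes 29 were tested, 0 passed, and the median log2 fold change was −0.0594. *Ms4a7* was the 1 lower without overlap, a smaller share than the 9.37% of all genes, with 1417, 1464 and 1623 normalized counts in the control tumors and 736, 1078 and 1011 in the treated tumors (log2 fold change −0.69, adjusted p = 0.229 from limma). *C5ar1*, the receptor of complement C5a, and *Pld4*, a lysosomal nuclease, followed with −0.50 and −0.41, and *Ctss*, *Cybb* and *Timd4* were at the other end with 0.58, 0.52 and 0.46. *Timd4* had only 3 to 22 reads per tumor, with the 3 in control tumor 2. Without control tumor 1 the median turned to 0.30, 5 genes passed higher, *Ctss* (1.09) and *Cybb* (1.06) among them, and 1 passed lower, *Ms4a7* (−0.73).

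*Csf1r*, the receptor that FF-10101 inhibits, had 8961, 4388 and 3568 normalized counts in the control tumors and 3295, 5006 and 5024 in the treated tumors, with overlapping groups (log2 fold change −0.25, adjusted p = 0.735 from limma; 0.14 without control tumor 1). Its ligand gene *Csf1* had 2497, 3412 and 2934 against 3874, 3751 and 3457, and was the 1 of 7 tested genes of the CSF1R axis whose groups did not overlap. The same was true of 20.2% of all genes tested. *Csf2rb*, *Kit*, *Csf2ra* and *Flt3* had log2 fold changes of 0.91, 0.60, −0.40 and −0.38. None of the 7 passed an adjusted p of 0.05 in limma, and at an unadjusted 0.05 the count was 0 as well. In the fit that left out control tumor 1, *Csf2rb* (1.44) and *Kit* (1.15) passed higher and 0 passed lower, beside 12.0% and 9.88% of all genes, and the median of the 7 went from −0.0212 to 0.14.

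Because CD11b, lysozyme M, PU.1 and C/EBPβ are also made by neutrophils and monocytes, markers of these cells were set beside them. Of 14 neutrophil markers 10 were tested, 5 were higher without overlap and 0 lower (10.9% and 9.37% of all genes tested), and their sum was 2028 to 2451 normalized counts in the control tumors and 3255 to 3713 in the treated tumors. *Ngp* was read 0 times in all tumors, and *Camp* and *Ly6g* had at most 0.764 normalized counts. Of 9 classical monocyte markers 1 was higher and 1 lower without overlap, near those shares, with sums of 14255 to 28308 and 21660.3 to 27225. The sum over 8 leukocyte genes was 33760 in control tumor 1, 14018 and 13837 in control tumors 2 and 3, and 15323 to 22320.3 in the treated tumors. In dendritic cells, T cells, NK cells and B cells, no sum separated the groups. The T cell sum overlapped only through control tumor 1, with 3028 there, 1173 and 1036 in control tumors 2 and 3 and 1416 to 2829 in the treated tumors, and without it 4 of 10 T cell and 3 of 6 NK cell markers passed higher, where 12.0% of all genes passed higher and 9.88% lower. In the same setting 8 of 10 neutrophil markers passed higher, with a median log2 fold change of 2.35 (1.77 in all tumors), and of the monocyte markers 5 passed higher and 1 lower, with a median of 0.91 (0.43 in all tumors). The part of these cells in the differences of the 8 genes was not tested.

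The genes with the most similar course over the 6 tumors were taken among 9852 named coding genes whose mean normalized count reached 100, as those with the smallest root mean square difference between log2 values centered on their mean. For *Adgre1* these were *Gna15*, *Cysltr1* and *Itgam* (0.10, 0.13 and 0.15), so that 1 of the 8 genes was among the 3 nearest of another. For *Itgam* they were *Slc28a2*, *Dab2* and *Slc9a9* (0.10, 0.12 and 0.14), for *Maf* *Ttll1*, *Wwp1* and *Sipa1* (0.0623, 0.11 and 0.12), and for *Lyz2* *Clec4a2*, *Abcg3* and *Ms4a6b* (0.0748, 0.16 and 0.22). For *Spi1* they were *Csf2ra*, *Rgs14* and *Cotl1* (0.0654, 0.0737 and 0.0816), and for *Aif1* *Ncf4*, *Snx20* and *Rgs14* (0.0534, 0.0727 and 0.11). *Rgs14* was in both of these lists, and *Spi1* and *Aif1* differed by 0.14 from each other. For *Cebpb* the nearest were *Pim1*, *Trex1* and *Uba7* (0.0914, 0.11 and 0.11), and for *Mertk* *Sft2d2*, *Krt80* and *Mitf* (0.0782, 0.11 and 0.11). The widest gap among the 8 genes, 0.86, was between *Lyz2* and *Cebpb*.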

How the data were processed

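Bulk RNA of 6 tumors was analysed, grouped by the sample titles. The authors trimmed reads with fastp 0.19.5, quantified them with Salmon 1.5.1 on GENCODE vM27 and used DESeq2 1.22.1. They deposited log2 values, 1 per gene and tumor, whose transformation is not named. The values have the form of a variance-stabilizing transformation, and its inverse gave whole reads for 100% of 325854 values (largest gap 2.7e-09) and 1 size factor per tumor. Normalized counts are reads divided by it. Salmon's estimates leave reads of near-identical copies uncertain, and the library kit named does not mark strand.

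R 4.3.3 and limma 3.58.1 (lmFit, and eBayes with a trend) were run on log2(normalized count + 1), with the group as sole term, for the 13963 genes whose mean reached 10, all of them entering the Benjamini-Hochberg adjustment. The pseudocount shrinks differences of genes with few reads. The floor for a count of 0 was set at 3 reads (2.29 to 3.38 normalized counts by tumor) and covers counting error only. It replaced no count in the fits. The step was tested on simulated data. Of the identifiers, 51484 were named through GENCODE vM21, which is on another build than vM27, so coordinates are given only for RefSeq promoters. Copies were sought with BLAST 2.17.0 (at least 100 bases at 90% identity).

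The 8 genes and the lists were chosen with earlier results of these data known. Named genes are the 8, their relatives (1 is not reported here), the 3 largest fitted rises and falls of each lineage list, *Ptprc* and the 3 nearest genes of each of the 8. The rule also takes the 1 largest rise and fall of each marker list, which are given within list sums unless another part of the rule names them. *Col1a1*, *Pdgfrb*, *Ngp*, *Camp* and *Ly6g* are outside the rule and were chosen after their values were seen. Alternatives were pseudocounts of 0.5 and 10, no minimum or a mean of 50, quantile normalization, upper-quartile (75th percentile) scaling, array weights, no trend, the deposited log2 values, limma-voom, the replicate number as a block and each tumor left out.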

Additional observations from a re-analysis of the deposited data

How the results depend on the processing

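Of the 8 genes, *Adgre1*, *Itgam*, *Lyz2* and *Maf* were fitted lower in 17 of 17 alternatives, *Mertk* kept its sign in 14, *Aif1* in 15 and *Spi1* and *Cebpb* in 16. The 6 genes past the threshold became 8365 with array weights, 3 at a minimum mean of 50 and 17 with no minimum, and 1 (without control tumor 2) to 3051 (without control tumor 1) with a tumor left out. Array weights passed 7 of the 8 genes, 41 genes of the lineage lists and 69 marker genes, against 0, 0 and 0. Leaving out a tumor passed 0 to 2, 0 to 20 and 0 to 40 of them, with the highest counts without control tumor 1, and 0 to 1 of the 8 genes were then higher without overlap. With no minimum 1 marker gene passed. The 2 marker sums without overlap became 6 without control tumor 1, chosen after seeing the data. The cause was not tested.

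Array weights turned the sign of *Aif1* (0.41), *Spi1* (0.0170), *Lyz1* (0.38), *Spib* (0.0148), *Tfec* (0.0143), *Pld4* (0.12), *Flt3* (0.33), *Csf1r* (0.16) and *Cebpa* (0.14), and quantile normalization that of *Timd4* (−0.0078). With 1 tumor left out the log2 fold change crossed 0 for *Mertk* (−0.0355 to 0.46), *Aif1* (−0.48 to 0.21), *Cebpb* (−0.0309 to 0.62), *Lyz1* (−1.86 to 0.24), *Spib* (−0.35 to 0.0792), *Tfec* (−0.42 to 0.0233), *Pld4* (−0.65 to 0.0422), *Timd4* (−0.26 to 0.90), *Csf1r* (−0.52 to 0.14), *Itgb2* (−0.12 to 0.84), *Itgal* (−0.11 to 0.99), *Tyro3* (−0.68 to 0.26), *Adgre4* (−0.0347 to 0.75) and *Cebpa* (−0.27 to 0.16). With the mean of the leukocyte list in place of *Ptprc*, the log2 ratio differences of *Mertk* and *Cebpb* were 0.087 and 0.14. With 1 tumor left out, that of *Cebpb* to *Ptprc* ran from −0.45 to 0.0053 and that of *Lyz2* to *Adgre1* from −0.30 to 0.17.

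Deviations of tumors with the same number had correlations of −0.29, −0.0397 and −0.28 across genes, so the numbers were not taken to pair them. With the replicate number as a block, 1 gene passed and 0 of the 8 did.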
